A study of Mus musculus with 6 samples.

Results

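The NF-kB signalling genes described here are 35 genes chosen by name: the 5 subunits of the transcription factor, the 5 IkB proteins, 2 receptors of tumour necrosis factor, 6 adaptors and ubiquitin ligases, 7 kinases and kinase partners, 5 feedback inhibitors and 5 inflammatory target genes. All 35 had 1 row each among the 55487 genes of the deposited table. RNA was sequenced from bone marrow LSK cells of mice, the stem cells and multipotent progenitors that carry no lineage markers but do carry Sca-1 and Kit. The genotypes were littermate wild type (3 libraries) and Mc5r-/- (3 libraries, called Mc5r-null here), the latter without the melanocortin 5 receptor. Both genotypes were studied after irradiation, so no value below comes from unirradiated marrow, and neither dose nor interval is known here. The labels tie no library to particular mice and give no age, sex or pooling, so SDs and p-values measure how far these libraries differ, which could be a technical spread.

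NF-kB is a family of dimeric transcription factors that IkB proteins hold in the cytoplasm. Ligands such as tumour necrosis factor and interleukin-1 act through adaptors and ubiquitin ligases on a kinase complex that marks IkB for degradation, and a second, non-canonical branch runs through the kinase NIK and the processing of p100. Many genes that NF-kB switches on encode its own inhibitors, and in marrow the pathway is known for emergency myelopoiesis and for the survival of stem and progenitor cells.

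Libraries held 13983016 to 14953169 gene counts. Values per library are given as scaled CPM, the CPM of a gene after TMM scaling, which corrects for depth and for unequal composition of the libraries. Mc5r, measured as the check of the labels, had 181, 157 and 198 counts in wild-type replicates 1, 2 and 3 and 0, 0 and 1 in Mc5r-null. Xist, the transcript of the inactive X chromosome, had 77.3 to 84.8 scaled CPM in wild type and at most 0.144 in Mc5r-null, so Xist was present beyond 0.144 in wild type only. All 4 Y-linked genes looked at were present in both genotypes. Of these, Kdm5d was called higher in Mc5r-null (20.1 ± 0.918 and 23.5 ± 1.21 scaled CPM, edgeR adjusted p = 0.0374), and Ddx3y was not called although its groups did not overlap (58.97 ± 13.8 and 84.5 ± 2.47, edgeR adjusted p = 0.0794). Eif2s3y had 58.8 ± 1.84 and 57.3 ± 5.30 and Uty 11.9 ± 1.11 and 13.2 ± 0.951, and neither was called (SD, n = 3 each; edgeR adjusted p = 0.714 and 0.299). Every wild-type library thus held both Xist and Y-linked transcripts, and every Mc5r-null library held Y-linked ones with Xist at or below 0.144 scaled CPM. Sex composition of the libraries and genotype cannot be told apart in any comparison below. Of 8 LSK markers all were detected and 7 were higher in Mc5r-null, with a summed level of 1347 to 1380 scaled CPM in wild type and 1713 to 1726 in Mc5r-null. The 1 not called was Ly6a, the Sca-1 gene, with 58.6 ± 10.5 and 67.4 ± 9.71 scaled CPM (SD, n = 3 each, edgeR adjusted p = 0.446). Kit rose 1.09-fold (edgeR adjusted p = 0.00403). The sum of 11 monocyte and macrophage markers was 969.7 to 1061 in wild type and 556 to 583 in Mc5r-null (1 higher and 9 lower), that of 9 neutrophil markers 3815 to 4112 and 2911 to 2959 (2 higher, 5 lower), and that of 7 basophil and mast cell markers, of which Cma1 had no count, 384 to 419 and 190.2 to 248 (5 lower). The sum of 10 B and plasma cell markers was 6589 to 6673 in wild type and 18949 to 21926 in Mc5r-null (7 higher, 2 lower). All 6 erythroid markers were higher, with sums of 24.0 to 24.2 and 156 to 156.4, and 3 of 5 endothelial markers were higher (101 to 108 and 111 to 119.8). Of 8 T and NK cell markers 5 were tested, 2 higher and 1 lower, with sums of 271 to 273 and 215 to 223. The part of these other cell types in the results was not tested, and in bulk RNA a change in the share of a cell type and a change in RNA per cell cannot be told apart.

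All 35 genes passed the filter on low counts and were tested with edgeR's quasi-likelihood test, with Benjamini-Hochberg adjustment over 15257 genes. At an adjusted p under 0.05, 11 were higher and 5 lower in Mc5r-null and 19 were not called. That is 45.7% of the 35 genes, where 32.9% of all genes tested were called, 16.8% higher and 16.1% lower. The 35 genes were chosen with earlier results of these data known, so their share is not independent of the values and was not tested. The median of their absolute log2 fold changes was 0.13, below the 0.18 of all genes tested, and the median of the signed ones was 0.06 beside -0.0047. The genotypes did not overlap for 19 genes, 13 higher and 6 lower, where this held for 48.2% of all genes, 24.2% higher and 24.1% lower. Of the 16 genes called, 9 of the higher and 4 of the lower kept their call in all 14 alternative analyses. The others were Ikbkg, Tnf and Tnfrsf1a.

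**Figure D1:**
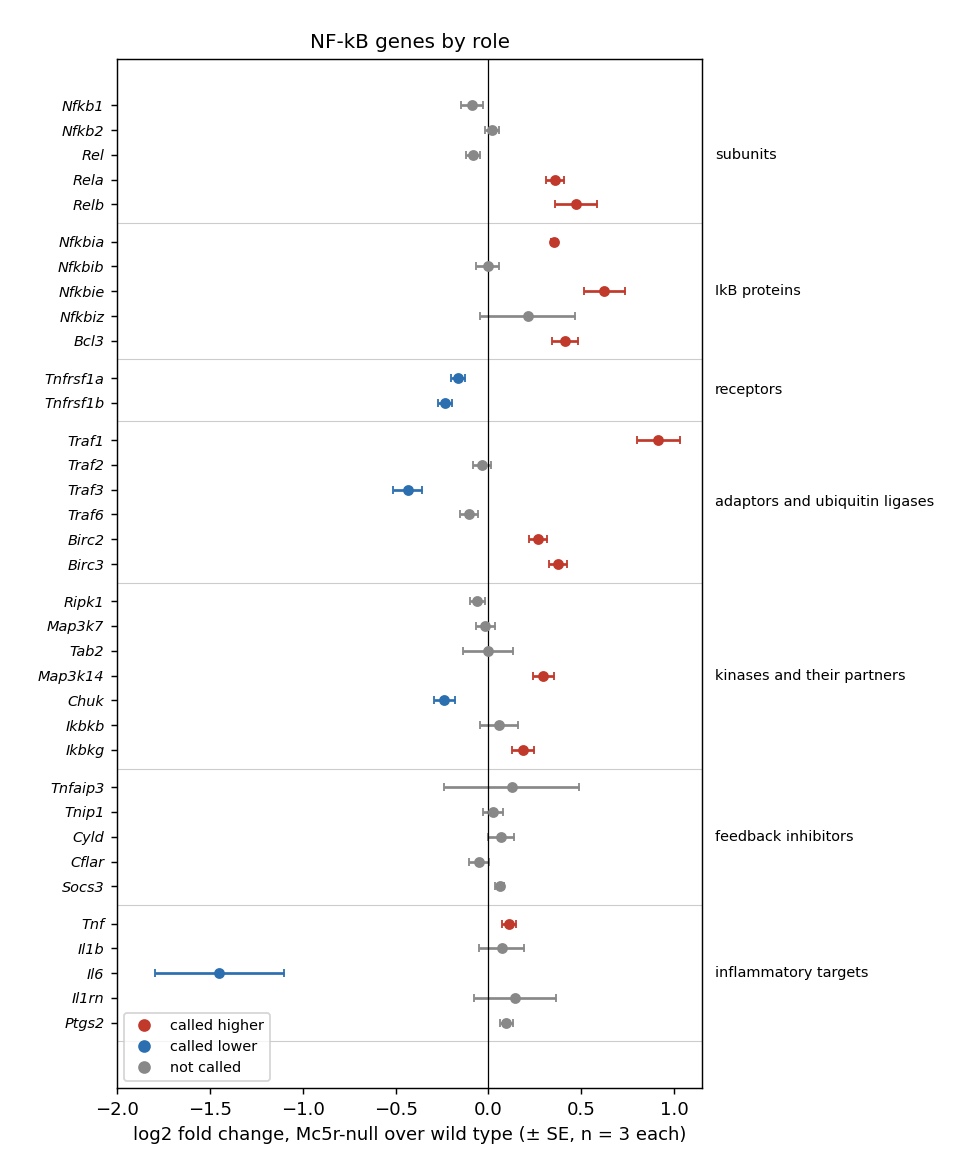
Fitted log2 fold change, Mc5r-null over wild type, of the 35 NF-kB genes (x axis; points with SE, 3 libraries each), grouped by role on the y axis. Both receptors lie left of 0, 4 of 5 IkB genes lie right of it, 3 of them called higher. No gene grouped as a feedback inhibitor, a group without the IkB genes, was called. Il6 lies farthest from 0 and Traf1 is the largest rise.

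Promoter sequences were read from RefSeq. Genes known as NF-kB targets are known partly by kB sites in their promoters, so the share of matches given here is not independent of how the genes were chosen. RefSeq windows from 250 bases before to 50 bases after the transcription start (GRCm38.p6) were on hand for 31 of the 35 genes; Ikbkb, Relb, Nfkbiz and Nfkb1 had none in the table used. The windows were searched on both strands, overlapping matches included, for the kB consensus, a 10-base motif that runs GGG, purine, any base, A or T, 2 pyrimidines, CC. It was present in the windows of 11 of 31 genes (35.5%), where 5.14% of 27025 genes with a window held it. Among the 10167 tested genes with a window the share was 6.15%. Genes with several windows, such as Nfkb2, had more chances to match. A match is a description of the letters and not a site of binding. The match was found in 3 of 10 genes called higher, 2 of 5 called lower and 6 of 16 not called. The stretches below show these matches in the order of the results, 5′ to 3′ on the gene's own strand and all before the RefSeq start used (other annotated starts of Nfkb2 and Tnfaip3 lie further upstream), with the motif in capitals. Where the capitals open with GGA the match is on the opposite strand, and a longer run of capitals holds overlapping matches.
Nfkb2 (chr19:46304678-46304736, plus strand): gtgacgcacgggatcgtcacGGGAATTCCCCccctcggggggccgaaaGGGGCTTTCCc
Rel (chr11:23771031-23771081, minus strand): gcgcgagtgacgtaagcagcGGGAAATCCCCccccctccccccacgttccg
Nfkbia (chr12:55492648-55492696, minus strand): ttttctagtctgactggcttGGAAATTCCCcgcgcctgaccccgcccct
Nfkbie (chr17:45555574-45555623, plus strand): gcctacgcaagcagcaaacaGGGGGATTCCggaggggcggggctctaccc
Traf3 (chr12:111166340-111166369, plus strand): cgcgcgcccaggcggcccgcGGGGATTTCC
Tnfaip3 (chr10:19015411-19015555, minus strand): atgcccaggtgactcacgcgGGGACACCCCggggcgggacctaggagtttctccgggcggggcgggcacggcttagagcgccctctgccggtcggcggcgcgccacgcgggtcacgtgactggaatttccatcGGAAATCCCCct
Tnip1 (chr11:54962967-54963018, minus strand): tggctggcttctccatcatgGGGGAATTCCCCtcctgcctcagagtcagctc
Il6 (chr5:30013050-30013099, plus strand): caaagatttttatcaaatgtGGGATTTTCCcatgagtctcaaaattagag
The stretch before Nfkbia, the best expressed of the genes and one called higher, holds its match 29 to 20 bases before the start. Nfkb2, Rel and Tnip1, which were not called, hold overlapping matches on both strands. Matches also lay in the windows of Map3k7, Cyld and Bcl3, in Bcl3 just after the start.

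**Figure D2:**
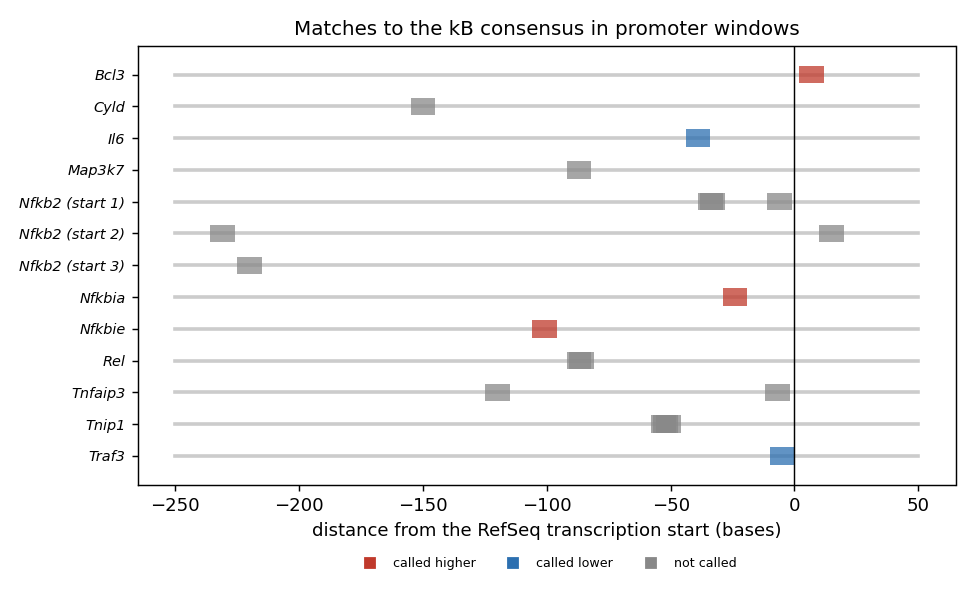
Positions of kB consensus matches (boxes, 10 bases wide) along each promoter window that holds one (grey lines, 250 bases before to 50 after the RefSeq start at 0; x axis in bases), for 11 genes, with 3 starts for Nfkb2. Boxes are red for genes called higher, blue for lower and grey for not called, and all 3 colours appear.

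Levels between genes were compared in the deposited FPKM, which is per length. In wild type they ran from 0.187 ± 0.0171 FPKM for Il1rn, the interleukin-1 receptor antagonist, to 320.4 ± 3.74 FPKM for Nfkbia, which encodes IkB alpha (SD, n = 3). Next came Socs3, an inhibitor of cytokine receptor signalling (94.1 ± 2.28 FPKM), Nfkbiz, a nuclear IkB protein (37.6 ± 10.04), and Tnfrsf1a, the main receptor of tumour necrosis factor (32.3 ± 1.21), and these were also the first 4 in Mc5r-null. The SD of Nfkbiz spans the level of Tnfrsf1a, so their order in wild type lies within the spread. The cytokine gene Il6, the adaptor gene Traf1 and Il1rn were the lowest in both genotypes, at no more than 0.512 FPKM on average.

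**Figure D3:**
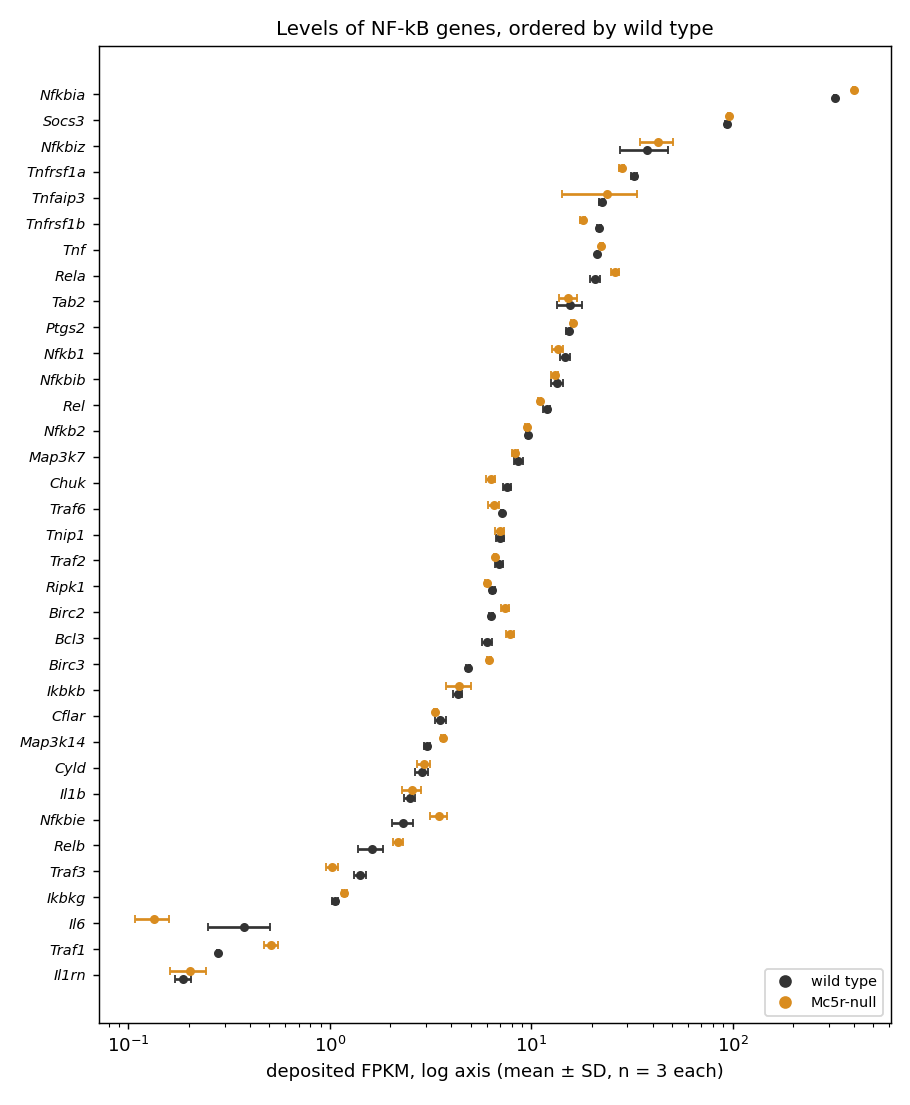
Deposited FPKM (log x axis; mean with SD, 3 libraries each) of the 35 NF-kB genes, ordered by wild-type mean, wild type in dark grey and Mc5r-null in orange. Nfkbia stands above all others in both genotypes, and the genotypes lie close together for most genes.

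Of the 5 subunit genes, Rela and Relb rose in Mc5r-null and none fell with edgeR, DESeq2 or limma-voom or at an unadjusted p under 0.05. Of all genes edgeR called 16.8% higher and 16.1% lower. Rela encodes p65, the transactivating partner of the canonical dimer (ENSMUSG00000024927, GRCm38 chromosome 19, positions 5637483 to 5648130, plus strand). Its scaled CPM were 112, 112 and 123 in wild-type replicates 1, 2 and 3 and 146, 157 and 142 in Mc5r-null. Every Mc5r-null library lay above every wild-type library, and the change was 1.28-fold (log2 fold change 0.36 ± 0.05 SE, edgeR adjusted p = 0.000858). Relb, the transactivating partner of the non-canonical dimer, had 10.9, 8.28 and 9.34 scaled CPM in wild type and 12.6, 13.99 and 12.98 in Mc5r-null. The groups did not overlap, with a 1.39-fold rise (edgeR adjusted p = 0.0143) and the lowest wild-type value in replicate 2. The precursor genes were not called: Nfkb1, which encodes p105 and p50, had 236 ± 12.96 and 222 ± 15.4 scaled CPM, and Nfkb2, which encodes p100 and p52, 60.9 ± 0.925 and 61.7 ± 1.62 (SD, n = 3 each; edgeR adjusted p = 0.327 and 0.75). Nfkb1 was called lower without Mc5r-null replicate 2 (edgeR log2 fold change -0.15, adjusted p = 0.0488). Rel, the c-Rel gene, had 88.1 ± 3.74 and 83.1 ± 0.823 and did not pass (edgeR adjusted p = 0.139), although its groups did not overlap. Within each library Rela made up the largest part of the FPKM summed over the 5 subunits, 35.4 ± 1.45% in wild type and 41.8 ± 0.54% in Mc5r-null, while Nfkb1 held 25.1 ± 1.67% and 21.7 ± 0.718%. Relb held the smallest part, 2.75 ± 0.391% and 3.51 ± 0.093% (SD, n = 3 each).

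Among the IkB genes 3 of 5 rose and none fell with edgeR, beside 16.8% of all genes called higher and 16.1% lower. Their median log2 fold change was 0.35. On the same 6 libraries DESeq2, limma-voom and an unadjusted p under 0.05 gave the same counts. Nfkbia (ENSMUSG00000021025, GRCm38 chromosome 12, positions 55489410 to 55492647, minus strand), the inhibitor that is degraded and then resynthesised in each round of signalling and whose promoter match is shown above, had 636, 625 and 619.8 scaled CPM in wild type and 799, 796 and 803 in Mc5r-null. The groups were far apart relative to their spread, with a 1.28-fold rise (log2 fold change 0.35 ± 0.02 SE, edgeR adjusted p = 1.21e-06). Nfkbie, the gene of IkB epsilon, another inhibitor induced by NF-kB, had 15.6, 13.7 and 17.4 in wild type and 25.9, 24.95 and 21.2 in Mc5r-null. It rose 1.54-fold (edgeR adjusted p = 0.00322), and the Mc5r-null library nearest to wild type was replicate 3. Bcl3, a nuclear IkB protein that binds p50 and p52 dimers, had 19.3, 21.1 and 21.5 in wild type and 27.6, 28.8 and 25.95 in Mc5r-null. It rose 1.33-fold with no overlap (edgeR adjusted p = 0.00295). Nfkbib, the IkB beta gene, had 39.4 ± 2.56 and 39.3 ± 1.67 scaled CPM (SD, n = 3 each), and did not pass (edgeR adjusted p = 0.964).

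Both receptor genes fell, and neither rose with edgeR, DESeq2 or limma-voom or at an unadjusted p under 0.05. Of all genes edgeR called 16.1% lower. Tnfrsf1a encodes TNFR1, which carries a death domain, and had 117, 125 and 118 scaled CPM in wild type and 104, 109 and 109.6 in Mc5r-null. All Mc5r-null libraries lay below all wild-type ones (1.12-fold lower, edgeR adjusted p = 0.0115), and the call was lost with DESeq2 (adjusted p = 0.0823), which called 20.3% of all genes. Tnfrsf1b encodes TNFR2, which lacks the death domain, and had 82.2, 83.6 and 86.3 in wild type and 73.5, 69.8 and 70.9 in Mc5r-null. Here too the groups did not overlap (1.18-fold lower, edgeR adjusted p = 0.00193). The lower monocyte and neutrophil marker sums given above moved in the same direction as these receptors, and their part in the result was not tested.

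The adaptors and ubiquitin ligases held changes in both directions, 3 higher and 1 lower of 6, beside 16.8% and 16.1% of all genes. Traf1 (ENSMUSG00000026875, GRCm38 chromosome 2, positions 34941750 to 34961772, minus strand), an adaptor that binds TRAF2 and cIAP proteins and is itself induced by NF-kB, had 3.64, 3.71 and 3.64 scaled CPM in wild type and 7.35, 6.35 and 7.06 in Mc5r-null, from 55, 56 and 55 and 102, 88 and 98 counts. This was the largest rise among the 35 genes, 1.89-fold (log2 fold change 0.92 ± 0.11 SE, edgeR adjusted p = 0.000514), at a low level. Birc2 and Birc3 encode cIAP1 and cIAP2, ubiquitin ligases that act on RIPK1 in the canonical branch and on NIK in the non-canonical one. Birc2 had 50.9, 52.2 and 49.7 in wild type and 58.4, 62.3 and 63.1 in Mc5r-null and rose 1.203-fold (edgeR adjusted p = 0.00294). Birc3 had 33.1, 32.4 and 33.7 in wild type and 43.8, 41.9 and 43.03 in Mc5r-null and rose 1.30-fold (edgeR adjusted p = 0.000607). Neither gene's groups overlapped, and these genes are neighbours on chromosome 9 with no tested gene between them. Traf3, the adaptor that brings NIK to the cIAP ligases for degradation, went the other way, with 30.3, 26.4 and 27.95 scaled CPM in wild type and 19.9, 20.3 and 22.4 in Mc5r-null. It fell 1.35-fold (log2 fold change -0.43 ± 0.08 SE, edgeR adjusted p = 0.00344), with no overlap. Traf2, which recruits the cIAP proteins to TNF receptors, had 45.1 ± 1.86 and 44.1 ± 0.569 scaled CPM, and Traf6, the ubiquitin ligase downstream of interleukin-1 and Toll-like receptors, 61.6 ± 0.727 and 57.4 ± 3.25 (SD, n = 3 each; edgeR adjusted p = 0.652 and 0.144). Traf6 was called lower without Mc5r-null replicate 3 (edgeR log2 fold change -0.15, adjusted p = 0.0423).

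Of the 7 kinases and kinase partners, 2 were higher and 1 lower, beside 16.8% and 16.1% of all genes. Map3k14 encodes NIK, the kinase that starts the non-canonical branch, and had 25.7, 24.3 and 25.7 scaled CPM in wild type and 30.3, 31.9 and 30.6 in Mc5r-null. It rose 1.23-fold with no overlap (edgeR adjusted p = 0.00485). Chuk encodes IKK alpha, the kinase that NIK activates, and had 62.2, 65.2 and 59.6 in wild type and 50.1, 56.03 and 52.5 in Mc5r-null. It fell 1.18-fold, again with no overlap (edgeR adjusted p = 0.0119). Along the non-canonical branch, which was not one of the roles grouped here, Birc2, Birc3, Map3k14 and Relb were called higher and Traf3 and Chuk lower. Nfkb2 and Traf2, the adaptor that recruits the cIAP proteins, were not called. Ikbkg, the X-linked gene of NEMO, the regulatory subunit of the kinase complex, had 23.7, 22.7 and 24.3 in wild type and 26.3, 26.5 and 27.6 in Mc5r-null. The groups did not overlap and the 1.14-fold rise passed narrowly (edgeR adjusted p = 0.0444), but the call held in only 4 of 14 alternatives, with adjusted p between 0.0363 and 0.245, and was lost without any 1 library. Its exons share 418 bases with those of G6pdx on the opposite strand, which fell 1.34-fold, and no source used here says whether counting used strand. The remaining kinase genes did not pass: Ikbkb, the IKK beta gene, had 104 ± 5.02 and 108 ± 14.8 scaled CPM and Map3k7, the TAK1 gene, 67.6 ± 3.58 and 66.8 ± 2.31 (SD, n = 3 each; edgeR adjusted p = 0.721 and 0.834). Tab2, a ubiquitin-binding partner of TAK1, had 127 ± 18.1 and 127 ± 12.4, and Ripk1, the kinase and scaffold at TNFR1, 67.1 ± 1.77 and 64.4 ± 1.25 (edgeR adjusted p = 0.992 and 0.287).

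**Figure D4:**
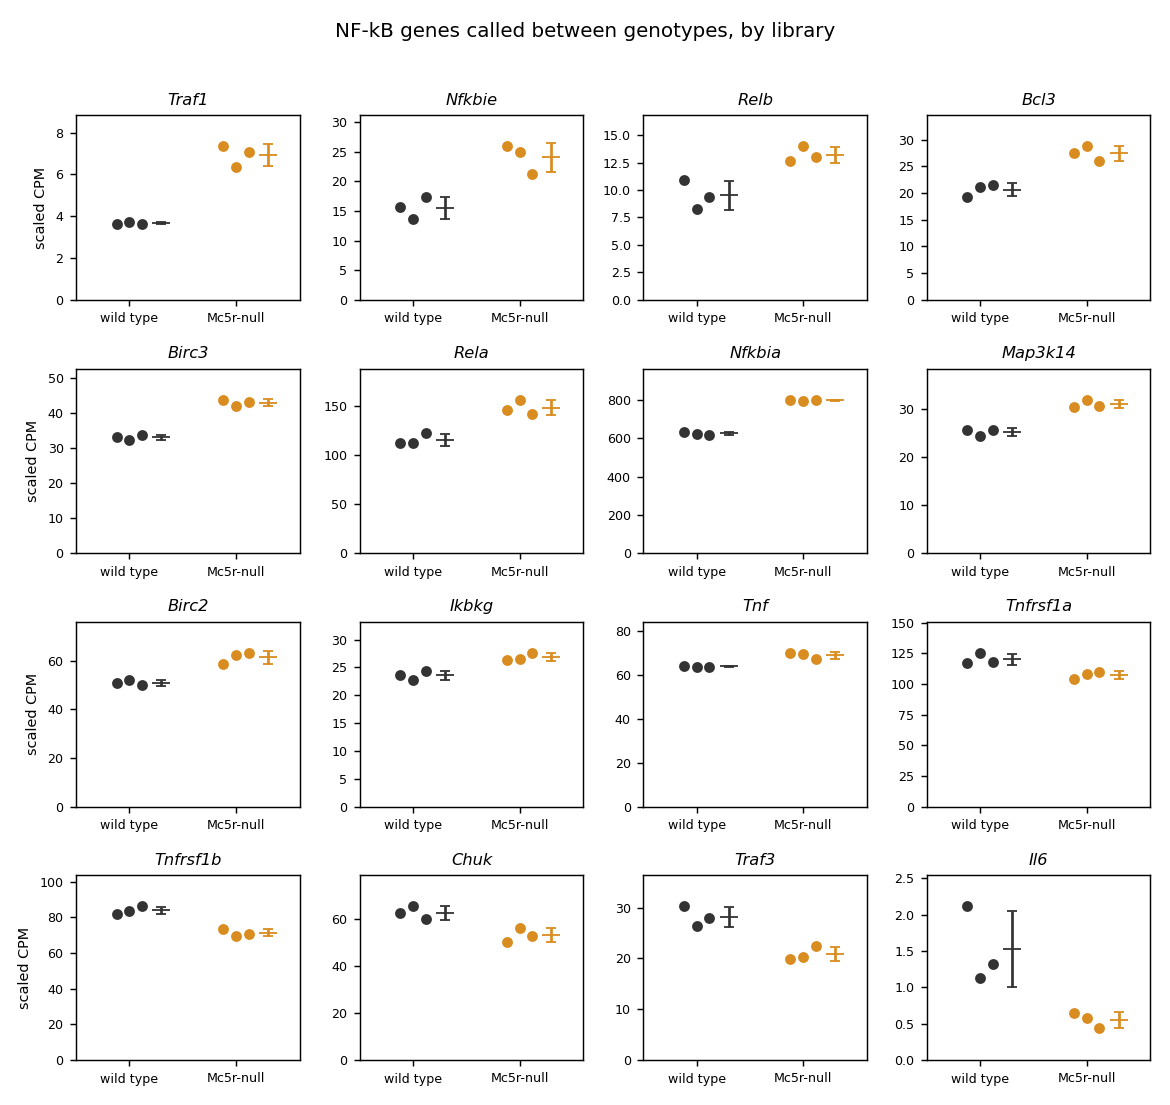
Scaled CPM by library (y axes start at 0) for the 16 NF-kB genes called between genotypes, in order of log2 fold change; points are libraries 1, 2 and 3 from left to right, with mean and SD beside them. The libraries of the 2 genotypes do not overlap in any panel.

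None of the 5 genes grouped as feedback inhibitors, a group without the IkB genes, was called with edgeR, DESeq2 or limma-voom. Nfkbia and Nfkbie, inhibitors that NF-kB itself induces, were called higher, as given above. Within the group, at an unadjusted p under 0.05, 1 gene was higher and 0 lower with edgeR and with limma-voom and 0 in either direction with DESeq2. That gene was Socs3, with 307, 313 and 298 scaled CPM in wild type and 315, 321 and 319.7 in Mc5r-null (edgeR adjusted p = 0.0889). Tnfaip3 encodes A20, a ubiquitin-editing enzyme that shuts off signalling to the kinase complex (ENSMUSG00000019850, GRCm38 chromosome 10, positions 19000910 to 19015657, minus strand), and had 309, 301 and 317 in wild type and 382, 445 and 184 in Mc5r-null. Mc5r-null replicates 1 and 2 lay above every wild-type library and replicate 3 below every one, from counts of 5302, 6177 and 2555. Over all libraries the log2 fold change was 0.13 ± 0.36 SE (edgeR adjusted p = 0.831); without Mc5r-null replicate 3 it was 0.42 and called higher (edgeR adjusted p = 0.0163). Leaving out replicate 2 of Mc5r-null gave -0.13 (edgeR adjusted p = 0.848), so 1 library sets the sign. Tnip1, which encodes an A20 partner, had 53.5 ± 2.35 and 54.5 ± 2.92 scaled CPM (SD, n = 3 each; edgeR adjusted p = 0.769). Cyld, a deubiquitinase that removes the chains that carry the signal, had 55.8 ± 4.03 and 58.4 ± 4.19, and Cflar, which encodes the caspase-8 inhibitor cFLIP, 62.8 ± 4.03 and 60.6 ± 0.627 (edgeR adjusted p = 0.518 and 0.506).

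Unequal libraries within a genotype were seen in Nfkbiz as well, which had 229.5, 358 and 233 scaled CPM in wild type and 361, 252 and 337 in Mc5r-null. One wild-type library, replicate 2, stood with the 2 higher Mc5r-null libraries, and Mc5r-null replicate 2 with the 2 lower wild-type ones, so the groups overlapped (log2 fold change 0.21 ± 0.26 SE, edgeR adjusted p = 0.598). Of the 30 NF-kB genes whose average log2 CPM reached 4, 2, Nfkbiz and Tnfaip3, had a highest library at least 1.5 times the lowest within a genotype, as 6.18% of 8814 genes did. At 2 times it was Tnfaip3 alone, beside 2.51% of genes. The cause of these spreads was not tested.

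**Figure D5:**
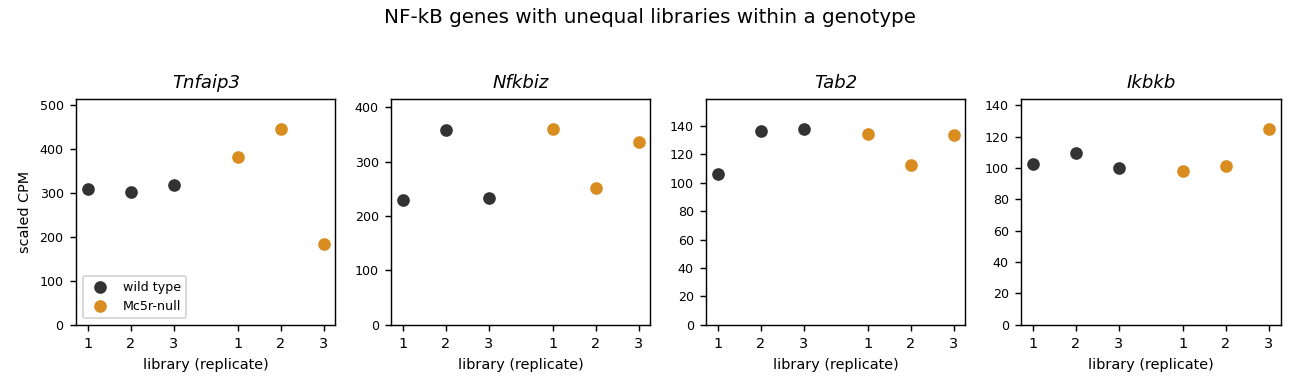
Scaled CPM in each library (x axis: replicates 1 to 3 of wild type, dark grey, then of Mc5r-null, orange; y axes start at 0) of the 4 genes not called, with an average log2 CPM of 4 or more, that had the largest ratio of highest to lowest library within a genotype. Tnfaip3 is lowest in Mc5r-null replicate 3, and the genotypes overlap in every panel.

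Of the 5 inflammatory target genes, Il6 fell and Tnf rose, and 3 were not called, where 16.1% of all genes were called lower and 16.8% higher. Il6 (ENSMUSG00000025746, GRCm38 chromosome 5, positions 30013114 to 30019981, plus strand), whose promoter match is printed above, is scarce in these cells, with 32, 17 and 20 counts in wild type and 9, 8 and 6 in Mc5r-null. In scaled CPM these were 2.12, 1.13 and 1.32 in wild type and 0.648, 0.577 and 0.433 in Mc5r-null, with no overlap, the largest difference among the 35 genes (2.73-fold lower, log2 fold change -1.45 ± 0.35 SE, edgeR adjusted p = 0.0137). Tnf, the gene of tumour necrosis factor, had 63.8, 63.6 and 63.6 scaled CPM in wild type and 69.9, 69.3 and 67.1 in Mc5r-null. The groups did not overlap, but the rise was 1.08-fold (edgeR adjusted p = 0.0472), held in 4 of 14 alternatives and was lost with DESeq2 (adjusted p = 0.317) and without any 1 library. The wild-type counts of Tnf, 964, 961 and 961, were nearer to each other than random sampling of reads usually leaves such counts. The same held for the wild-type counts of Traf1, 55, 56 and 55. It was not limited to wild type, as Zc3h12a, described below, had 1182, 1188 and 1183 counts in Mc5r-null. How many genes share this was not counted. For such genes the SD is no larger than read sampling alone would give, so it need not hold any difference between mice. Il1b, the interleukin-1 beta gene, had 5.78 ± 0.375 and 6.08 ± 0.656 scaled CPM (SD, n = 3 each; edgeR adjusted p = 0.697). Il1rn, of low count, had 1.46, 1.66 and 1.39 in wild type and 1.58, 1.37 and 2.02 in Mc5r-null, which overlapped (edgeR adjusted p = 0.688). Ptgs2, which encodes the inducible cyclooxygenase, had 72.1, 69.1 and 72.4 in wild type and 75.6, 77.5 and 75.3 in Mc5r-null, which did not overlap, and did not pass (edgeR adjusted p = 0.0768).

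Other genes of the pathway were taken from a list of 68 receptors, adaptors, kinases and regulators, of which 65 were tested; Cd40 and Tnfrsf9 had too few counts. In this list 12 were higher and 8 lower (30.8%, beside 32.9% of all genes), and the median log2 fold change was -0.01. The rises with the smallest p were in Il1r1, Zc3h12a, Prkcq and Il1r2. Il1r1, the signalling receptor of interleukin-1, rose 1.40-fold from 68.8 ± 2.16 to 96.2 ± 1.04 scaled CPM, and Il1r2, the decoy receptor, 1.74-fold from 9.69 ± 0.946 to 16.8 ± 0.49 (SD, n = 3 each; edgeR adjusted p = 2.49e-05 and 0.000345). Il1rap, the co-receptor of Il1r1, was not called (log2 fold change -0.15 ± 0.07 SE, edgeR adjusted p = 0.125); it was named once its value had been seen. Zc3h12a, which encodes the RNase Regnase-1 that degrades inflammatory mRNA, rose 1.25-fold and Prkcq, a protein kinase C gene of antigen receptor signalling, 1.61-fold (edgeR adjusted p = 0.000232 and 0.000327). Among the falls, Card9, the adaptor of myeloid pattern receptors, went from 108 ± 0.502 to 72.99 ± 3.67 scaled CPM (1.49-fold lower) and Ikbke, an IKK-related kinase gene, from 63.3 ± 1.87 to 50.1 ± 1.62 (1.26-fold lower; SD, n = 3 each; edgeR adjusted p = 2.04e-05 and 0.000735). Card10, a scaffold gene, fell 1.42-fold and Casp8, the caspase-8 gene, 1.10-fold (edgeR adjusted p = 0.0193 and 0.0201). Both of these calls were lost with DESeq2 (adjusted p = 0.151 for Card10 and 0.182 for Casp8), where 2 genes of the list were lower in place of 8. Leaving out 1 library lowered that count to between 3 and 7, with 3 without replicate 3 of Mc5r-null, 4 without replicate 2 of wild type, and 5 without replicate 1 of either genotype or replicate 2 of Mc5r-null.

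Other target genes came from a list of 65, of which 57 were tested; Ccl22, Bcl2a1b, Csf2, Csf3, Il1a, Il12b, Nos2 and Saa3 had too few counts. Here 17 were higher and 17 lower, 59.6% of those tested beside 32.9% of all genes, with a median log2 fold change of -0.06. This list, like that of other pathway genes, was chosen with earlier results of these data known. Its share of called genes is therefore not independent of the values and was not tested. Irf4, a transcription factor gene of activated and antibody-secreting lymphocytes, rose 2.37-fold from 17.9 ± 1.17 to 42.4 ± 1.19 scaled CPM (SD, n = 3 each; edgeR adjusted p = 2.70e-06), in the same direction as the B and plasma cell markers, whose part in it was not tested. Plek, the pleckstrin gene, rose 1.31-fold, the AP-1 gene Junb 1.13-fold and Marcksl1, which encodes an actin-regulating substrate of protein kinase C, 1.17-fold (edgeR adjusted p = 3.09e-05, 6.97e-05 and 0.000108). Atf3, a stress-induced transcription factor gene, fell 2.09-fold from 332 ± 14.2 to 159 ± 4.92 and Cd69, an early activation marker, 1.52-fold from 496 ± 4.09 to 326 ± 3.57 (SD, n = 3 each; edgeR adjusted p = 1.63e-07 and 8.43e-08). The antiproliferative gene Btg2 fell 1.35-fold and the immediate early gene Egr1 1.19-fold (edgeR adjusted p = 1.04e-06 and 1.13e-06). Many genes of this list also answer to other transcription factors.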

How the data were processed

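Poly-A RNA was sequenced as stranded paired-end libraries, per the labels' protocols. The authors deposited whole-number counts per gene and FPKM values for 6 libraries, per the file headers. The submitters' processing notes name CASAVA 1.8, HISAT2, StringTie, edgeR and the build GRCm38 without roles; the counting program, annotation release and use of strand are not given in the sources used here. Over the 14196 genes with at least 10 counts in every library, ratios of count to FPKM followed the count totals in 100% of values within 0.001; genes with fewer counts, Il6 among them, were not checked.

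The test of the counts used edgeR 4.0.16 under R 4.3.3, with filterByExpr (minimum count 10, minimum total 15), TMM scaling and the robust quasi-likelihood test on genotype, with Benjamini-Hochberg adjustment over all genes tested. Scaled CPM divides counts by the library total times its TMM factor; SEs are the absolute log2 fold change over the root of F. Taken over genes together, counts of replicate libraries differed beyond counting noise (chi-square per degree of freedom 6.12 to 8.37), so none was merged. Such a sum over genes does not exclude single genes whose libraries differ by no more than counting noise. On simulated data the script called 52 of 100 genes changed 1.5-fold, 86 of 100 changed 2-fold and 18 of 14867 unchanged genes. Only these genes were changed in the simulation, where 32.9% of genes tested were called in the data. The unadjusted p needed for a call depends on that share, so these counts do not give the rates of missed or false calls for the data. Changes under 1.5-fold were not simulated, so a gene not called may still differ between genotypes. Alternatives were RLE and upper-quartile scaling, DESeq2 1.42.0, limma-voom (limma 3.58.1), no filter, a filter of 1 CPM in 3 libraries, a replicate block, no immunoglobulin genes, each library left out and a looser motif. Gene positions are from GENCODE release M21 and promoter windows from RefSeq, matched by symbol.

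The 35 genes and all lists were chosen with earlier results of these data known. All 35 are named, with the 4 smallest p in each direction among called genes of the other lists, and Mc5r. Xist, the Y-linked genes, Il1rap, G6pdx and the single cell type markers were named after their values were seen. Skp1 was not matched by symbol. With 3 libraries a group, no test for outliers was made.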

Additional observations from a re-analysis of the deposited data

How the results depend on the processing

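NF-kB genes called numbered 11 higher and 5 lower; over the alternatives they were 9 to 11 higher and 4 to 6 lower, with 9 and 4 by DESeq2, and 9 to 10 and 5 to 6 when each library was left out in turn. Their median log2 fold change was 0.06 with TMM, 0.06 with RLE and 0.05 with upper-quartile factors. Among other pathway components called lower, 8 by edgeR, the count was 2 with DESeq2, 5 with the replicate block and 3 to 7 when each library was left out (3 without replicate 3 of Mc5r-null, 4 without replicate 2 of wild type, 5 without replicate 1 of either genotype or replicate 2 of Mc5r-null); the higher ones were 10 to 12. Other target genes were 15 to 16 higher and 12 to 15 lower with a library left out. With 1 mismatch allowed outside the leading GGG, 19 of 31 promoters of the NF-kB genes matched in place of 11 (61.3%), beside 36.2% of all genes and 42.6% of tested genes with a window. The replicate block left 9 higher and 5 lower. No pairing of the libraries by replicate number was seen: deviations of equal numbers correlated at 0.0025, -0.041 and -0.024 across genes, and no Mc5r-null library correlated best with its own number. With 3 libraries a group and a spread that could be technical, this cannot exclude a pairing. No call of an NF-kB gene turned in direction. Depth limits Il6, Il1rn and Traf1 most, with 6 to 102 counts per library.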

Other observations

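Relb and Bcl3, both called higher, lie on chromosome 7 within 1 stretch (GRCm38 positions 19606217 to 19822770) that holds 5 other tested genes. Of these, Clptm1 (log2 fold change 0.43, edgeR adjusted p = 2.48e-05) and Bcam (0.63, edgeR adjusted p = 0.0127) were also higher, Tomm40 was lower (-0.20, edgeR adjusted p = 0.00184), and Nectin2 (0.49, edgeR adjusted p = 0.0613) and the apolipoprotein gene Apoe (0.03, edgeR adjusted p = 0.948) were not called. This stretch was looked at after the values of Relb and Bcl3 were seen.

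Exons of 7 of the 35 genes share bases with another annotated gene. For Nfkb2 the other genes include Psd on the opposite strand, at 0.75 ± 0.232 scaled CPM in wild type and 1.49 ± 0.11 in Mc5r-null, and for Nfkbib they include Sirt2, at 38.02 ± 2.80 and 41.1 ± 0.37 (SD, n = 3 each), so reads of Nfkbib and Sirt2 cannot be told apart over the 42 shared bases if strand was not used.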
